A study of Drosophila melanogaster with 12 samples.

Results

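Nuclear-encoded genes of the mitochondrial respiratory chain and ATP synthase were taken from the count table of a Drosophila melanogaster S2 cell experiment by gene symbol. A gene was a member when its symbol began with ND- (complex I), Sdh (complex II), UQCR- (complex III), COX (complex IV) or ATPsyn (complex V). The rule used no measured value and found 80 of the 16718 genes in the table, namely 39 of complex I, 7 of complex II, 8 of complex III, 11 of complex IV and 15 of complex V. Of these, 61 genes code for subunits, 1 codes for the assembly factor Sdhaf3, and 18 are duplicate copies (paralogs) whose names carry an L after the parent's name, with or without a number. Complex subunits with unrelated names, such as RFeSP, Cyt-c1, blw, sun, cype and levy, fall outside the rule and are described separately near the end.

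The respiratory chain passes electrons from NADH through complex I and from succinate through complex II to ubiquinone. Complex III hands them on to cytochrome c, complex IV passes them to oxygen, and complex V makes ATP from the proton gradient that results. Complexes I, III, IV and V join subunits from the nuclear genome with subunits from the mitochondrial genome, whereas complex II, which is also succinate dehydrogenase of the TCA cycle, is nuclear-encoded throughout. In the fly, many duplicated copies of these genes are known for expression in the testis.

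S2 cells are a line derived from Drosophila embryos with features of hemocytes, the macrophage-like blood cells of the fly. The study used 4 groups of 3 libraries. Control cells were untreated. The other groups were given double-stranded RNA (dsRNA) for RNA interference (RNAi) against BEAF-32, against row, or against both, named double RNAi here. BEAF-32 is an insulator protein that binds promoters and domain borders, and ROW is a zinc-finger chromatin protein; the series title asks how the 2 factors act together on gene regulation. The labels' protocols give a first dose of 4 µg of dsRNA per ml of culture, a second dose of 8 µg per ml 2 days on, and harvest after 2 more days. All groups are S2 cells, the labels name no other agent or allele, and no group received dsRNA of unrelated sequence. In the comparisons with control, a response to dsRNA of any sequence thus cannot be told apart from that to the given dsRNA. The labels do not say whether the 3 libraries of a group came from separate cultures, so the p-values measure the spread between these libraries, which may be technical.

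Expression was read by 3′ RNA-seq as counts per gene, with 2276507 to 3963412 counts per library. Members supplied 789728 of the 35264366 counts. BEAF-32 itself had 42.8 to 66.0 CPM (its count relative to the scaled library total) in control, 14.9 to 24.7 in BEAF-32 RNAi, 50.9 to 64.6 in row RNAi and 26.1 to 33.3 in double RNAi. The row transcript had 47.2 to 52.5 CPM in control, 37.2 to 47.2 in BEAF-32 RNAi, 22.3 to 33.1 in row RNAi and 25.4 to 34.5 in double RNAi. Each targeted transcript was thus lower in every library given its dsRNA than in every control library. By edgeR's quasi-likelihood test, with a threshold of 0.05 on the Benjamini-Hochberg adjusted p over 7377 genes, each of these differences was called except that of row in double RNAi (log2 change -0.71, adjusted p = 0.202). Leaving out any single control, or row RNAi replicate 1 or 3, ended the call for row in its own knockdown (adjusted p 0.0769 to 0.306 by edgeR). Leaving out control replicate 1 or 3, or any single double RNAi library, ended the call for BEAF-32 under double RNAi (adjusted p 0.0665 to 0.243 by edgeR). That call was also lost with scaling to library totals (adjusted p = 0.0600 by edgeR) and with limma-voom (adjusted p = 0.0512). Of 10 hemocyte markers, 9 were in the table and 8 had at least 10 CPM, while NimC1 had 0.35 CPM and Pxn 530.5. Their summed level was 1039 to 1101 CPM in control, 997 to 1030 in BEAF-32 RNAi, 904 to 1015 in row RNAi and 926 to 988 in double RNAi, so it was lower in all 9 dsRNA libraries. Pxn supplied the largest part of this sum, and the single markers were not compared between groups. The part of this sum in the results below was not tested, and in bulk libraries fewer cells of a kind and less RNA per cell cannot be told apart. Of 4 fat body markers, Lsp1alpha, Lsp2 and Fbp1 were at 0 and Yp1 had 2 counts. Of 7 testis markers, sa, aly, Mst87F, dj and Mst84Da were at 0, can had 18 counts (0.56 CPM) and bam 207 counts (5.79 CPM). Other lists had members of at least 10 CPM. These were 1 of 5 germline markers (aub, 57.5 CPM), 2 of 4 neuron markers (Syt1, 18.9, and elav, 12.0) and 1 of 4 muscle markers (Tm1, 329.4). No crystal cell, follicle cell or gut marker reached 10 CPM.

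All 61 subunit genes and Sdhaf3 had counts, and 61 of these 62 passed the filter on low counts; ND-B8, a complex I accessory subunit, did not. Their median level over the 12 libraries was lowest for complexes I and II. It was 120.7 CPM for the 32 tested complex I genes, 131.2 for 5 of complex II, 439.9 for 6 of complex III, 600.7 for 7 of complex IV and 635.6 for 11 of complex V. Divided by transcript length, the medians were 139.8, 146.8, 507.3, 996.0 and 792.5 CPM per kb in the same order, so complexes IV and V changed places. Because 3′ libraries give about 1 tag per transcript whatever its length, the CPM scale is the more direct one for such data, and both are given.

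**Figure D1:**
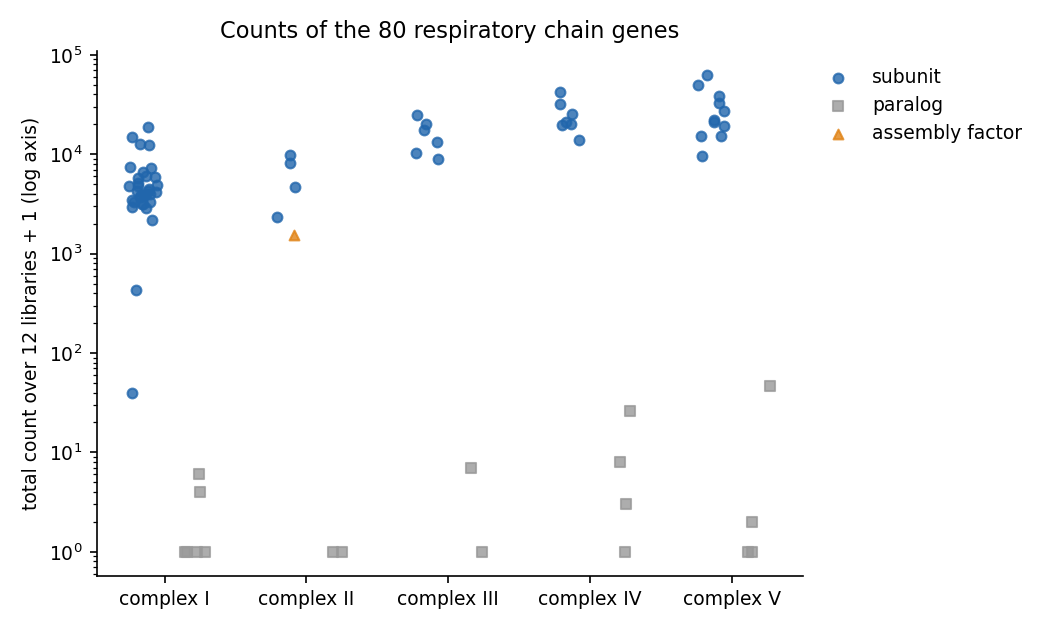
Total count of each of the 80 genes over the 12 libraries plus 1, on a log axis, by complex. Blue circles are subunits, the orange triangle is the assembly factor Sdhaf3 and grey squares are paralogs, which lie far below the subunits of every complex; the lone low subunit of complex I is ND-B8.

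Levels differed widely inside each complex, and each level is given here as CPM and per kb of transcript. In complex I the highest gene was ND-MLRQ at 541.3 CPM (1006 CPM per kb), whose mammalian counterpart NDUFA4 has been reassigned to complex IV. The lowest tested gene was ND-AGGG at 12.6 CPM (16.9 CPM per kb). The 7 nuclear-encoded core subunits (ND-75, ND-51, ND-49, ND-30, ND-24, ND-23 and ND-20) had a median of 110.5 CPM or 92.0 CPM per kb. The other 25 tested subunits had a median of 129.0 CPM or 168.1 CPM per kb.

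In complex II the iron-sulfur subunit SdhB reached 279.6 CPM (229.4 per kb) and the membrane anchors SdhC and SdhD 231.5 and 131.2 CPM (255.6 and 146.8 per kb). The flavoprotein SdhA had 66.1 CPM, and Sdhaf3, which helps mature the iron-sulfur subunit, 44.1 CPM (93.7 per kb). Per kb, SdhA was the lowest of the complex. UQCR-Q was highest in complex III at 712.7 CPM and 955.4 per kb, and UQCR-14 (258.1 CPM) or the core protein UQCR-C1 (306.6 per kb) lowest. Complex IV ran from COX5B at 395.9 CPM to COX7C at 1197 CPM, and per kb from COX4 at 518.8 to COX8 at 1429. In complex V the rotor subunit ATPsyngamma had the most CPM of all members at 1797 (1288 per kb), and the membrane subunit ATPsynG the most per kb at 1511. ATPsyndelta was lowest in complex V on both scales, at 274.8 CPM and 72.0 per kb.

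The paralogs were almost silent. All 18 paralogs together had 95 counts in 12 libraries, which was 0.012% of the members' counts, and 10 of them had 0. The highest were ATPsynepsilonL with 46 counts in 10 libraries and COX5BL with 25 counts in 5 libraries, 0.383% and 0.18% of the counts of the parent genes sun and COX5B. COX4L had 7 counts, UQCR-11L 6, ND-51L2 5, ND-51L1 3, COX7AL 2 and ATPsynbetaL 1. The copies at 0 were ND-20L, ND-24L, ND-49L, ND-B14.5AL, SdhAL, SdhBL, UQCR-14L, COX6AL, ATPsynCF6L and ATPsynGL. A count of 0 allows up to 3 counts, from 0.00774% of the parent for ATPsynGL to 0.127% for SdhAL, for counting error only. How the counting treated reads that match both a paralog and its parent is not known, so these values are uncertain to that extent. ND-B8 had 39 counts in all, of the order of the paralogs, and the filter on low counts kept it and the paralogs out of the tests. In the alternative with no such filter, ND-B8 and the 8 paralogs with counts were tested as well (70 members).

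The members' summed share of all counts ranged from 2.113% to 2.340% over the libraries. It was 2.296%, 2.282% and 2.259% in control and 2.340%, 2.304% and 2.201% in BEAF-32 RNAi. Row RNAi had 2.221%, 2.210% and 2.238%, and double RNAi had 2.279%, 2.177% and 2.113%. The 3 row RNAi libraries lay below the 3 control libraries, while the BEAF-32 and double RNAi libraries overlapped control. The separation of row RNAi held for the share of all counts and not on the other scales. Over counts outside ribosomal protein genes the members had 3.74% to 3.85% in row RNAi and 3.80% to 4.01% in control, and as summed CPM 22312 to 23002 against 22328 to 23911, with overlap in both. By group the share was 2.28% ± 0.019 (SD, n = 3) in control, 2.28% ± 0.072 in BEAF-32 RNAi, 2.22% ± 0.014 in row RNAi and 2.19% ± 0.084 in double RNAi. Complex V alone supplied 0.907% of all counts in control and complex II 0.0752%. The complex III share was 0.269% to 0.289% in control and 0.254% to 0.258% in row RNAi without overlap, and 0.241% to 0.271% in double RNAi with overlap. Control and row RNAi stayed apart for complex III over counts outside ribosomal protein genes (0.452% to 0.504% against 0.431% to 0.445%) and, narrowly, as summed CPM (2658 to 3010 against 2568 to 2654). The complex III genes did not move alike in row RNAi. Their log2 changes ran from -0.46 to 0.02, with 4 of 6 below 0. Only UQCR-Q and UQCR-11 had an unadjusted p under 0.05 by edgeR. Complex III was not alone in its share of all counts. The complex I share was 0.509% to 0.522% in control and 0.489% to 0.504% in row RNAi. The complex V share was 0.894% to 0.916% in control and 0.861% to 0.890% in double RNAi. Both overlapped control over counts outside ribosomal protein genes and as summed CPM.

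**Figure D2:**
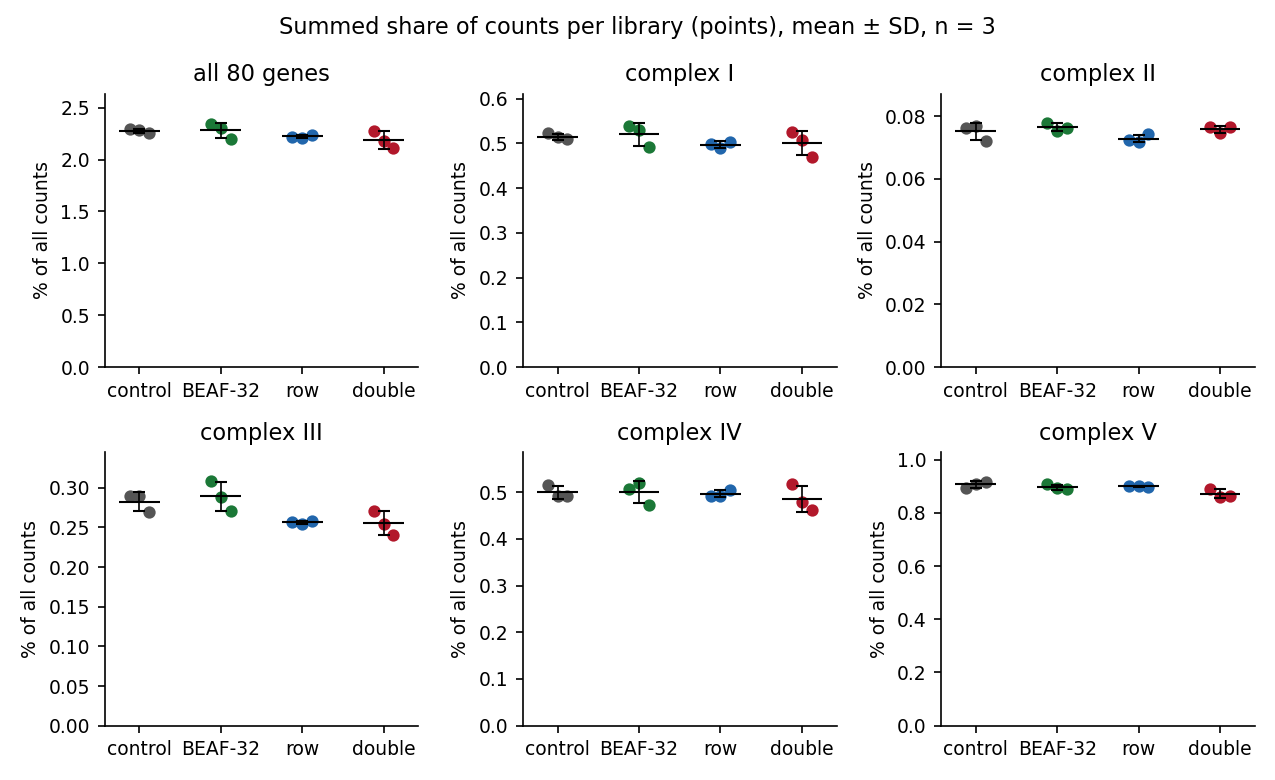
Summed share of all counts from the 80 members and from each complex, in percent, for the 4 groups. Points are libraries, the horizontal line is the mean and the bar is the SD of 3 libraries; every axis starts at 0, and the complex III panel shows row RNAi (mean 0.257%) below control (mean 0.282%).

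Gene by gene, the median member was lowest in 2 of the double RNAi libraries. Relative to the control mean, the median log2 deviation of the 61 tested members was 0.07, -0.04 and -0.01 in the control libraries themselves. It was 0.04, 0.05 and -0.06 in BEAF-32 RNAi and -0.03, -0.03 and -0.02 in row RNAi. In double RNAi it was -0.01, -0.10 and -0.21. The double RNAi libraries thus differed among themselves: replicate 1 was at the control level and replicate 3 was lowest of all 12. Double RNAi replicate 3 was also the deepest library (3963412 counts) and had the highest scaling factor (1.05). Ribosomal protein genes made up 38.97% of its counts, less than in any other library. Control replicate 1, with the highest member median, had the lowest scaling factor (0.962). Its ribosomal protein percentage, 42.68%, was above that of every other library. Whether these features account for the member values was not tested.

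**Figure D3:**
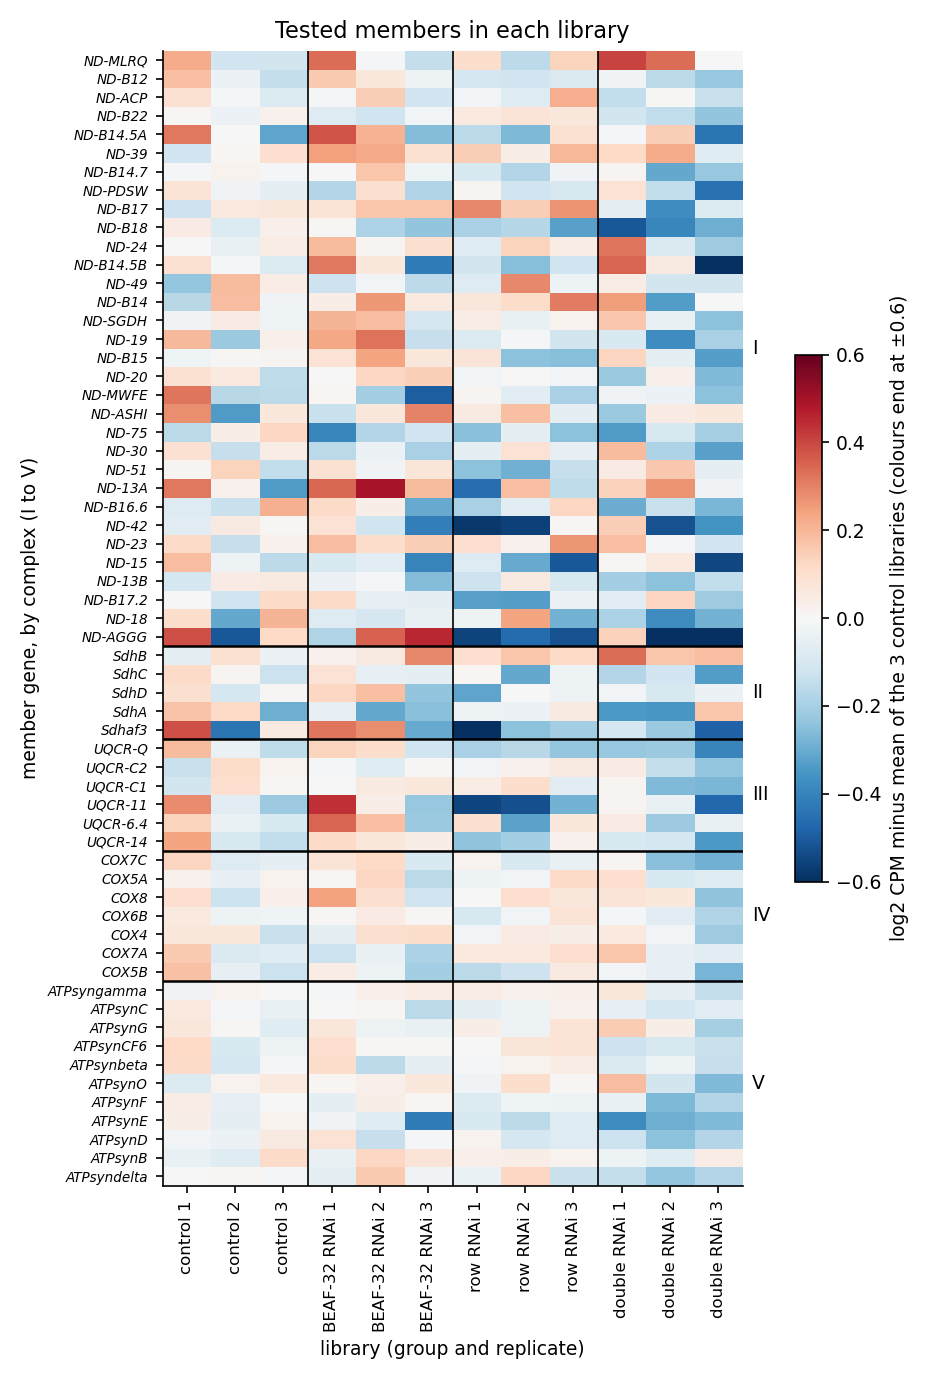
Log2 CPM of each of the 61 tested members in each library minus the mean of the 3 control libraries, with genes ordered by complex (I to V, right margin) and by mean level within a complex. Blue is lower and red is higher than control, and colours end at ±0.6; the column of double RNAi replicate 3, whose median is -0.21, is mostly blue.

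After BEAF-32 RNAi, no respiratory chain gene was called. By edgeR's quasi-likelihood test 0 of 61 tested members passed, beside 0.0271% of all tested genes, and DESeq2 and limma-voom also called 0. At an unadjusted p under 0.05 there was 1 member, 1.64% of those tested, against 5.18% of all genes. That gene was ND-13A, an accessory subunit of the peripheral arm of complex I. It had 115, 93.7 and 72.6 CPM in control against 117.2, 130.2 and 105.2 CPM in BEAF-32 RNAi, so the groups overlapped (log2 change 0.33, SE 0.15, adjusted p = 0.919 by edgeR). The members' median log2 change was 0.03, beside -0.00066 for all genes, and 24 of 61 (39.3%) lay below 0 against 50.1% of all genes. Without BEAF-32 RNAi replicate 1 the direction turned, with 33 of 61 below 0 and a median of -0.0084. The number at an unadjusted p under 0.05 was 0 when control replicate 3 was omitted, 2 when replicate 1 of either group was, and 3 when BEAF-32 RNAi replicate 3 was. At most 2 of these members were lower, beside 2.14% to 2.75% of all genes lower in these fits.

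Per complex, the medians for BEAF-32 RNAi were 0.05 for complex I, 0.03 for II, 0.05 for III, 0.02 for IV and 0.00 for V. The smallest p in each complex belonged to ND-13A, SdhB (log2 change 0.13, SE 0.10), UQCR-6.4 (0.12, SE 0.12), COX7A (-0.12, SE 0.08) and ATPsynE (-0.16, SE 0.09). The catalytic flavoprotein SdhA had 70.7 ± 12.0 CPM (SD, n = 3) in control against 60.9 ± 5.9 in BEAF-32 RNAi, a log2 change of -0.22 with an SE of 0.17. Of these only ND-13A had an unadjusted p under 0.05. In complex I, ND-B15 (0.13) and ND-B17 (0.14) had all 3 BEAF-32 RNAi libraries above control, 2 of 61 members with groups apart against 10.2% of all genes.

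Row RNAi also gave no call among the members when all libraries were fitted together. EdgeR's test passed 0 of 61, beside 0.19% of all genes, and DESeq2 and limma-voom gave 0 as well. At an unadjusted p under 0.05 there were 5 members (8.2%, against 5.73% of all genes), 4 lower (2.91% of all genes) and 1 higher (2.82% of all genes). The 4 lower ones were UQCR-Q and UQCR-11 of complex III and ND-B18 and ND-42 of complex I, and the higher one was ND-B17. Only 1 lower member was left on omitting control replicate 1 or row RNAi replicate 2, and 2 on omitting row RNAi replicate 1. In these fits 2.5% to 2.79% of all genes were lower at that p. The median log2 change was -0.03, with 37 of 61 (60.7%) below 0 against 51.0% of all genes, and it was 0.01 without control replicate 1. All row RNAi libraries lay outside the control range for 10 members (16.4%, against 11.8% of all genes), 6 of them lower (9.84%, against 6.09%).

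UQCR-11, an accessory subunit of complex III, had the largest log2 change of these 5 genes. It had 496.9, 389.5 and 350.3 CPM in control and 278.4, 282.6 and 334.6 CPM in row RNAi. BEAF-32 RNAi gave 552.0, 418.7 and 348.4 CPM, and double RNAi gave 412.4, 395.7 and 293.9 CPM. The 3 row RNAi libraries were below all control libraries, whereas double RNAi overlapped control. The log2 change in row RNAi was -0.46 (SE 0.20, adjusted p = 0.850 by edgeR). UQCR-11 passed the threshold when only control and row RNAi were fitted (adjusted p = 0.0098) and when no filter on low counts was used (adjusted p = 0.0464), so this call turned on the fit.

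In complex I, ND-42, an accessory subunit of the membrane arm, had 101.7, 110.3 and 106.7 CPM in control and 70.9, 71.7 and 106.6 CPM in row RNAi (log2 change -0.35, SE 0.16, adjusted p = 0.798 by edgeR). The row RNAi replicate 3 library was at the control level. ND-15, another accessory subunit, had a log2 change of -0.29 (SE 0.16). The assembly factor Sdhaf3 had 61.9, 34.7 and 49.0 CPM in control and 30.0, 39.6 and 40.8 CPM in row RNAi, with overlap, a log2 change of -0.39 and an SE of 0.22. Complexes IV and V moved least: their medians in row RNAi were both 0.02, and none of their genes had a log2 change beyond -0.11 or 0.07. The medians of complexes I, II and III were -0.06, -0.11 and -0.09.

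**Figure D4:**
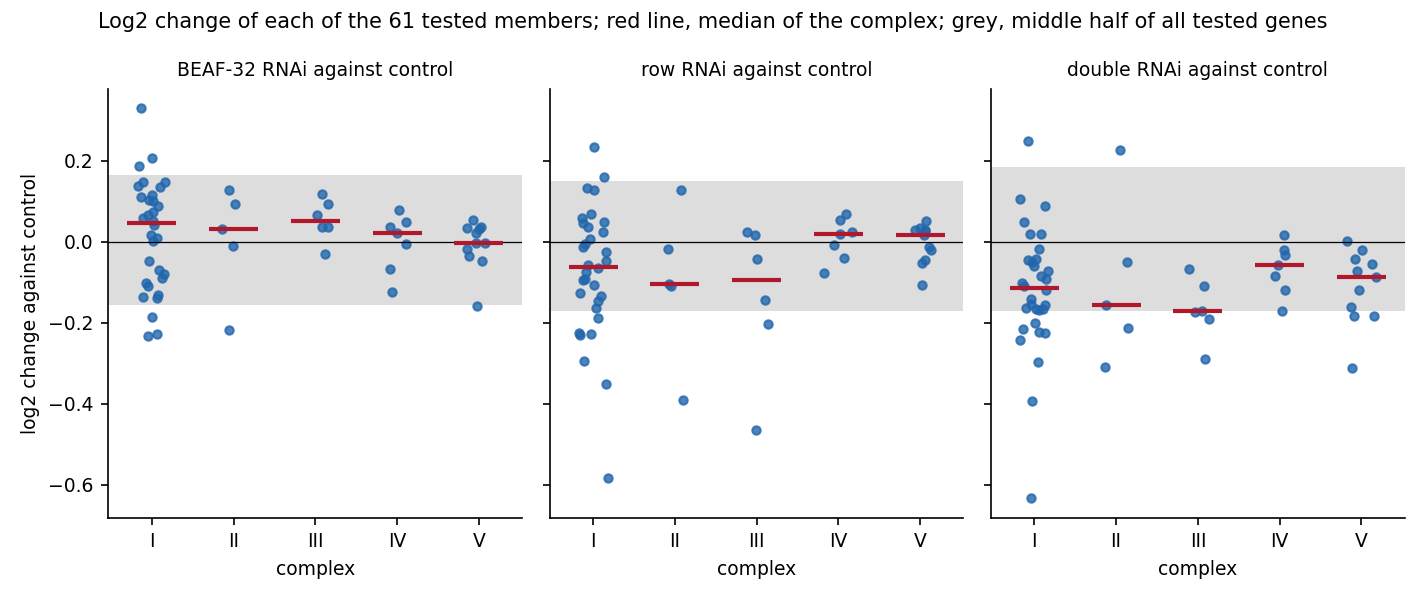
Log2 change against control of each of the 61 tested members (blue points) by complex, for BEAF-32, row and double RNAi. The red line is the median of a complex and the grey band spans the 25th to 75th percentile of all tested genes; in double RNAi all complex medians lie below 0, from -0.06 for complex IV to -0.17 for complex III, and complexes IV and V stay near 0 in the other panels.

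Double RNAi had the lowest median of the 3 comparisons with control, still without a call. EdgeR's test passed 0 of 61 members, beside 0.271% of all genes, and DESeq2 and limma-voom gave 0 too. Of the 61 members 52 (85.2%) lay below 0, against 50.1% of all genes, and the median log2 change was -0.11. At an unadjusted p under 0.05 there were 9 members (14.8%, against 8.63% of all genes), 8 lower (13.1%, against 4.55%) and 1 higher (1.64%, against 4.08%). Cytoplasmic ribosomal protein genes also lay mostly below 0, with a median of -0.06 and 80 of 86 below 0. All genes of at least 100 CPM had a median of -0.02 with 57.1% below 0. The 50 members of that level had a median of -0.10 with 86% below 0. The members' values depended on single libraries. Without double RNAi replicate 3 the median was -0.06, 40 of 61 members lay below 0 and 3 were lower at an unadjusted p under 0.05; without double RNAi replicate 2 that last number was 4, and without replicate 1 it was 16. Without control replicate 1 the median was -0.06 and 5 members were lower at that p, and without control replicate 2 there were 12. Scaling to library totals, or fitting only control and double RNAi, gave 4, and a replicate block 5. Over these fits 3.25% to 4.72% of all genes were lower at that p.

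All 5 complexes had medians below 0 in double RNAi: -0.11 for complex I, -0.16 for II, -0.17 for III, -0.06 for IV and -0.09 for V. By gene, 26 of 32 complex I members, 4 of 5 of complex II, 6 of 6 of complex III, 6 of 7 of complex IV and 10 of 11 of complex V lay below 0. Of the 61 members 9 (14.8%) had all double RNAi libraries below all control libraries, against 6.6% of all genes. They were ATPsynE, ATPsynD, ATPsyndelta, ATPsynCF6 and ATPsynC of complex V, ND-B18, ND-B22 and ND-13B of complex I, and UQCR-Q.

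ATPsynE, a subunit of the membrane-embedded part of ATP synthase, had the smallest p among members in double RNAi. It had 612.3, 572.8 and 604.8 CPM in control and 458.9, 486.2 and 495.8 CPM in double RNAi. BEAF-32 RNAi gave 588.6, 567.9 and 445.6 CPM and row RNAi 560.4, 534.3 and 567.6 CPM. All double RNAi and all row RNAi libraries were below control, and 1 BEAF-32 RNAi library was lower than any other library. The log2 change was -0.31 in double RNAi (SE 0.09, adjusted p = 0.107 by edgeR). Among its neighbours in the complex, the stalk subunit ATPsynD had a log2 change of -0.18 (SE 0.09) and ATPsynF, of the membrane part, -0.16 (SE 0.08). The catalytic beta subunit ATPsynbeta had -0.09 (SE 0.08), the rotor subunit ATPsyngamma -0.04 (SE 0.06) and the ring subunit ATPsynC -0.07 (SE 0.07).

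ND-B18 is an accessory subunit of the membrane arm of complex I. Control had 190.6, 174.0 and 188.0 CPM. The other libraries had 185.2, 161.7 and 156.2 CPM in BEAF-32 RNAi, 160.8, 163.4 and 146.8 in row RNAi and 129.3, 140.2 and 149.8 in double RNAi. Control was above row RNAi and above double RNAi without overlap. The log2 change in double RNAi was -0.39 (SE 0.11, adjusted p = 0.165 by edgeR). SdhB went the other way: 246.4, 273.6 and 250.2 CPM in control, 275.0, 287.5 and 279.0 in row RNAi and 323.8, 288.3 and 290.3 in double RNAi, against 261.5, 266.3 and 313.4 in BEAF-32 RNAi. Both groups given row dsRNA were above control in every library, with a log2 change of 0.23 in double RNAi (SE 0.10, adjusted p = 0.500 by edgeR). SdhC, in the same complex, had a log2 change of -0.21 (SE 0.11) and SdhA -0.16 (SE 0.17), so the subunits of complex II had changes of both signs.

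Smaller changes in double RNAi were -0.17 (SE 0.09) for the core protein UQCR-C1, -0.11 (SE 0.08) for UQCR-C2, -0.17 (SE 0.08) for COX7C and -0.12 (SE 0.09) for COX5B. ND-B22 had a log2 change of -0.17 (SE 0.09) and ND-18 went from 67.1 ± 12.1 CPM (SD, n = 3) in control to 54.5 ± 3.6 CPM. ND-MLRQ, at 0.25 (SE 0.14), was the member with the highest log2 change, and its double RNAi libraries (670.6, 639.0 and 507.8 CPM) overlapped the control libraries (590.3, 467.9 and 469.6 CPM).

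The 2 by 2 layout allowed the 6 libraries given row dsRNA to be compared with the 6 without it. The 6 without it included the untreated control, and no group received dsRNA of unrelated sequence. A response to dsRNA of any sequence would thus enter this comparison, that for BEAF-32 dsRNA and the interaction, and cannot be told apart there. For row dsRNA 1 of 61 members passed edgeR's test (1.64%, beside 0.583% of all genes), and DESeq2 and limma-voom each called 1. The member was UQCR-Q, a small accessory subunit of complex III. It had 873.1, 742.1 and 688.5 CPM in control, and 839.0, 821.8 and 702.4 CPM with BEAF-32 dsRNA alone. With row dsRNA it had 667.3, 680.4 and 651.0 CPM in row RNAi and 651.6, 654.6 and 580.7 CPM in double RNAi. All 6 libraries with row dsRNA were below all 6 without it, a separation in this direction seen for 0.461% of all genes, and the gap between the nearest libraries was narrow. The log2 change was -0.27 (SE 0.06, adjusted p = 0.008 by edgeR).

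The UQCR-Q call held under every other scaling, filter and test tried, with adjusted p from 0.0023 to 0.0119. Leaving out libraries in turn gave adjusted p from 7.99e-04 to 0.0487 in 11 cases. The call was lost without control replicate 1, the highest library, where the log2 change was -0.21 and the adjusted p 0.0548. Against control alone the log2 changes were -0.20 in row RNAi (SE 0.08, adjusted p = 0.706) and -0.29 in double RNAi (SE 0.08, adjusted p = 0.135), and 0.04 in BEAF-32 RNAi (SE 0.08), all by edgeR. UQCR-Q overlaps the annotated gene CG46525 on the same strand, so reads of either gene cannot be told apart.

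**Figure D5:**
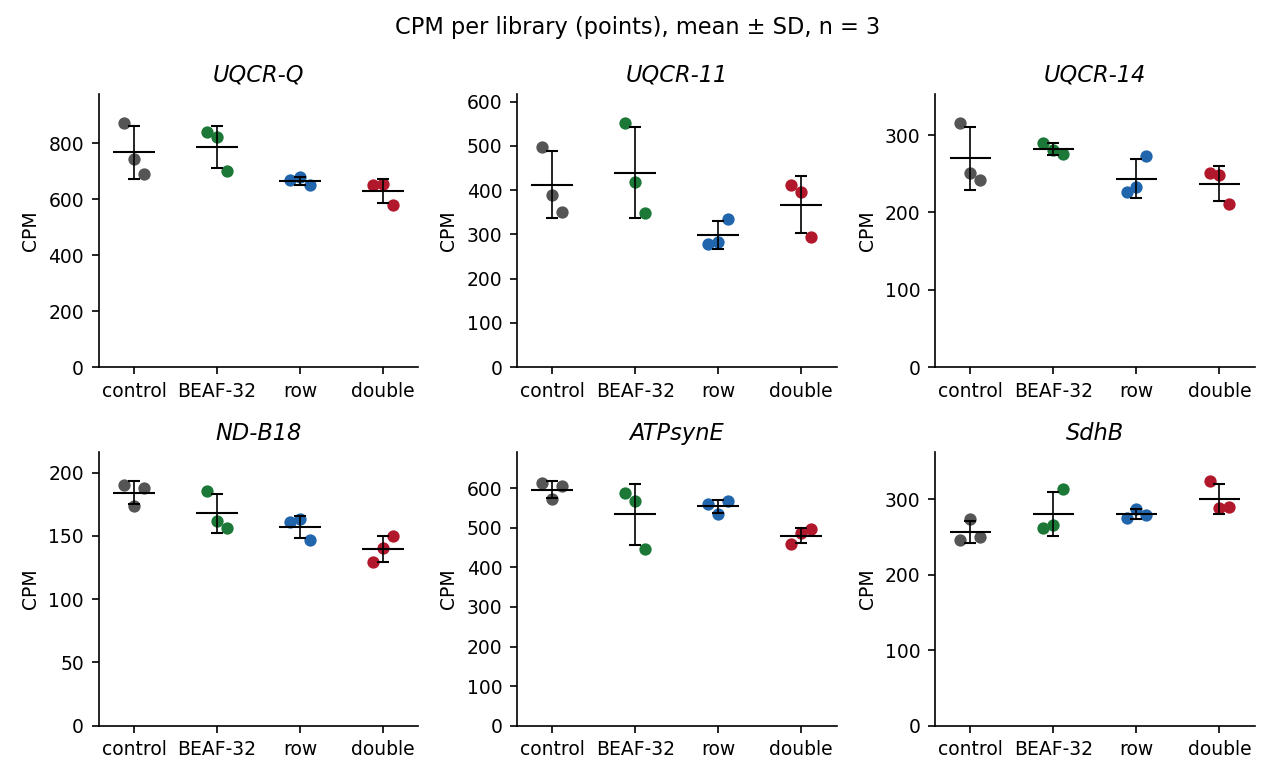
CPM of UQCR-Q, UQCR-11, UQCR-14, ND-B18, ATPsynE and SdhB in each library (points) of the 4 groups, with the mean (line) and SD (bar) of 3 libraries; axes start at 0. UQCR-Q is at most 680.4 CPM in all libraries with row dsRNA and at least 688.5 CPM in all others, and SdhB is higher in row RNAi and double RNAi than in control.

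Around UQCR-Q, the members with row dsRNA leaned downward without further calls. Below 0 lay 49 of 61 (80.3%, against 50.9% of all genes), the median was -0.08, and all 6 complex III genes were below 0 with a median of -0.16. At an unadjusted p under 0.05 there were 12 lower and 0 higher members (19.7%, against 9.01% of all genes in either direction, 4.7% lower and 4.31% higher). These 12 became 3 without control replicate 1 and 7 without BEAF-32 RNAi replicate 1, beside 4.21% and 4.1% of all genes lower. Ribosomal protein genes had 72 of 86 below 0 with a median of -0.04. All genes of at least 100 CPM had a median of -0.0069 with 53.0% below 0. The 50 members of that level had a median of -0.06 with 80% below 0. Control libraries had 315.8, 251.4 and 241.9 CPM of UQCR-14, another accessory subunit of complex III. The others had 290.1, 280.7 and 275.2 in BEAF-32 RNAi, 226.4, 232.3 and 272.5 in row RNAi and 251.1, 248.8 and 210.7 in double RNAi. The groups overlapped, with a log2 change of -0.20 (SE 0.07, adjusted p = 0.304 by edgeR). The others of complexes II and III were UQCR-11 (-0.36, SE 0.14), Sdhaf3 (-0.40, SE 0.15) and SdhC (-0.15, SE 0.07).

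In complex I the members concerned were ND-B18 (-0.24, SE 0.08), ND-AGGG (-0.71, SE 0.28), ND-19 (-0.22, SE 0.10), ND-B12 (-0.15, SE 0.06) and ND-B14.7 (-0.16, SE 0.08). ND-AGGG, the rarest tested member, had 18.6, 9.7 and 15.3 CPM in control libraries, 12.3, 18.1 and 19.4 in BEAF-32 RNAi, 9.3, 10.0 and 9.6 in row RNAi and 15.5, 7.2 and 6.0 in double RNAi. Its groups overlapped and its adjusted p was 0.342 by edgeR. COX7C of complex IV (-0.12, SE 0.05) and ATPsynE of complex V (-0.13, SE 0.06) completed the 12.

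The 6 libraries given BEAF-32 dsRNA differed less from the 6 without it. EdgeR's test passed 0 of 61 members (beside 0.0949% of all genes), as did DESeq2 and limma-voom. At an unadjusted p under 0.05 there were 3 members, 4.92% against 6.99% of all genes: ATPsynE (log2 change -0.18, SE 0.06, adjusted p = 0.522 by edgeR), ND-B22 (-0.15, SE 0.06) and ND-13A (0.29, SE 0.11). Leaving out double RNAi replicate 1 or 3 gave 6, and leaving out BEAF-32 RNAi replicate 3 gave 5. Of these, 5, 4 and 2 members in turn were lower, beside 3.86%, 4.5% and 3.56% of all genes lower. The median was -0.03 with 41 of 61 below 0 (67.2%, against 49.5% of all genes). All 7 complex IV genes and 10 of 11 complex V genes lay below 0, with medians of -0.03 and -0.06. Other abundant genes leaned the same way. Cytoplasmic ribosomal protein genes had a median of -0.04 with 71 of 86 below 0, and all genes of at least 100 CPM a median of -0.02 with 57.9% below 0.

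Whether both dsRNAs together differed from the sum of their separate effects was tested as an interaction on the log2 scale. No gene of the whole table was called by edgeR (0% of 7377), DESeq2 or limma-voom, and 2 members had an unadjusted p under 0.05 (3.28%, against 4.42% of all genes). That number was 5 without BEAF-32 RNAi replicate 3 or double RNAi replicate 1, and 1 without control replicate 3, row RNAi replicate 2 or double RNAi replicate 2. All of these members lay below 0, beside 2.03% to 3.04% of all genes below 0 at that p in these fits. ND-B17, an accessory subunit of the membrane arm of complex I, had 146.5, 166.2 and 167.5 CPM in control against 169.3, 179.2 and 179.4 CPM in BEAF-32 RNAi. It had 195.1, 177.2 and 192.8 CPM in row RNAi and 153.3, 123.3 and 151.0 CPM in double RNAi. Each single RNAi group was above control in all libraries while double RNAi overlapped control (interaction -0.54, SE 0.16, adjusted p = 0.930 by edgeR). The second gene was ATPsynCF6, a stalk subunit (-0.21, SE 0.10), which had 927.4 ± 71.5 CPM (SD, n = 3) in control, 950.0 ± 36.7 in BEAF-32 RNAi, 960.5 ± 28.6 in row RNAi and 852.9 ± 11 in double RNAi.

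The members' median interaction was -0.10, with 47 of 61 below 0 (77.0%, against 49.5% of all genes) and all 11 complex V genes below 0. Ribosomal protein genes had a median interaction of -0.11 with 76 of 86 below 0. All genes of at least 100 CPM had a median of -0.03 with 56.8% below 0. The 50 members of that level had a median of -0.10 with 80% below 0. Without double RNAi replicate 3 the members' median was -0.05, and with library totals in place of trimmed-mean scaling it was -0.04 while that of all genes was 0.06.

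Of the core and catalytic subunits, 0 were called in any comparison. In complex I the subunit that binds NADH, ND-51, had 108.2 ± 10.5 CPM (SD, n = 3) in control, 111.5 ± 4.7 in BEAF-32 RNAi, 92.4 ± 5.0 in row RNAi and 112.2 ± 8.4 in double RNAi. ND-75, the largest iron-sulfur subunit, had 123.0 ± 12.4, 105.0 ± 10.3, 108.0 ± 8.6 and 105.9 ± 9.0 CPM in the same order. Its log2 changes were -0.23, -0.19 and -0.22, each with an SE of 0.13. For ND-24, ND-49, ND-30, ND-23 and ND-20, the log2 change against control lay between -0.15 and 0.15 in every dsRNA group, with SE from 0.12 to 0.14.

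In complex IV, whose catalytic subunits come from the mitochondrial genome and are not analysed here, the nuclear subunits COX4 and COX5A changed by -0.06 to 0.05 on the log2 scale with SE of 0.08. COX5A had 899.3 ± 26.6 CPM (SD, n = 3) in control and 887.2 ± 67.7 CPM in double RNAi. ATPsyngamma was the steadiest member: its CV over all 12 libraries was 3.8%, and its group means ran from 1741 CPM in double RNAi to 1835 CPM in row RNAi. Its log2 changes were 0.02, 0.03 and -0.04 in BEAF-32, row and double RNAi, each with an SE of 0.06.

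Genes of the same complexes under other names were described as a further list. The table holds 11 of them, of which 9 were tested and 0 were called in any comparison with control. In double RNAi 7 of 9 lay below 0 with a median of -0.08. The complex IV subunit levy had 544.5 ± 10.8 CPM (SD, n = 3) in control and 479.9 ± 22.5 in double RNAi (log2 change -0.18, SE 0.08, adjusted p = 0.527 by edgeR). The complex III iron-sulfur protein RFeSP had -0.11 (SE 0.08), the ATP synthase subunit sun -0.17 (SE 0.10), and the ATP synthase alpha subunit blw 0.10 (SE 0.08) in row RNAi. The 11 assembly factors had 0 calls and a median of -0.04 in double RNAi. The 16 genes of pyruvate dehydrogenase and the TCA cycle had 0 calls and a median of -0.10, with 11 of 16 below 0 and 1, Scsalpha of succinyl-CoA ligase, at an unadjusted p under 0.05 (log2 change -0.32, SE 0.11, adjusted p = 0.280 by edgeR).

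Among 20 regulators of mitochondrial biogenesis and hypoxia, 1 was called in row RNAi (beside 0.19% of all genes) and the same 1 for row dsRNA against none (beside 0.583%). It was sima, the fly HIF-alpha, with 77.3 ± 8.2 CPM (SD, n = 3) in control and 141.7 ± 48.9 in row RNAi (log2 change 0.87, SE 0.16, adjusted p = 0.0031 by edgeR). The sima call was lost without row RNAi replicate 2, where the log2 change was 0.58 (adjusted p = 0.281), and without control replicate 3 (adjusted p = 0.109). For row dsRNA against none sima had a log2 change of 0.58 (SE 0.12, adjusted p = 0.0041 by edgeR), a call that ended when row RNAi replicate 2 was omitted (adjusted p = 0.0526). In double RNAi sima was at 102.2 ± 10.4 CPM (log2 change 0.40, SE 0.17, adjusted p = 0.497 by edgeR). The PGC-1 homologue srl, a coactivator known for raising respiratory chain gene expression in the fly, had 49.2 ± 13.4 CPM in control, 28.3 ± 2.5 in row RNAi and 36.5 ± 12.1 in double RNAi. Its log2 change in row RNAi was -0.79 (SE 0.23, adjusted p = 0.205 by edgeR). The transcription factor Dref, which binds the DNA replication-related element, had 54.9 ± 5.7 CPM in control and 33.1 ± 1.8 in double RNAi (log2 change -0.73, SE 0.20, adjusted p = 0.103 by edgeR).

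Members varied over the 12 libraries about as much as abundant genes in general. The 50 members of at least 100 CPM had a median CV over the 12 libraries of 8.83%, against 9.53% for 1279 genes of at least that level. The CV includes differences between groups, and the 1279 genes were not matched to the members in level. By complex the median CV was 11.2% for I, 9.63% for II, 12.0% for III, 7.95% for IV and 6.12% for V. After removing group means, pairs of members had a median correlation of 0.22 over the 12 libraries, against 0.01 for pairs of all genes of at least 100 CPM and 0.67 for pairs of ribosomal protein genes. These correlations share library, depth and scaling, and are given as a description. Of the 62 members that are not paralogs, 35 overlap another annotated gene, 7 on the same strand and 30 on the opposite one, with some on both. The use of strand in counting is not stated, so such counts are uncertain.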

How the data were processed

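RNA from 12 S2 cell libraries (4 groups of 3) was measured by 3′ RNA-seq. Per the labels' protocols, 100 ng of RNA was primed with oligo-dT carrying a 7-base barcode and an 8-base molecular identifier. The submitters' processing notes name the aligner STAR, without a version, and the build dm3. Annotation, strand use and the handling of identifiers were not given. The authors deposited raw counts per gene, not normalized; groups came from the labels.

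Tests used edgeR 4.0.16 in R 4.3.3: filterByExpr by group (minimum count 10), TMM factors (0.962 to 1.05), and a robust quasi-likelihood fit over all 12 libraries without a block. There were 6 comparisons: 3 dsRNA groups with control, 2 main effects of dsRNA (6 libraries against 6) and the interaction. Benjamini-Hochberg adjustment ran over 7377 tested genes (threshold 0.05). SE is the absolute log2 change over the square root of F. CPM uses TMM-scaled totals, and CPM per kb divides by the length of the canonical transcript in BDGP 6.54, another build than the authors', so no coordinates are given. Intervals and floors cover counting error only. The fit was tested on simulated data.

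Named genes were the core members, the highest and lowest of each complex, the members of smallest p per complex and comparison, called members, untested members, and up to 4 genes of each list by p. The members and lists were chosen with earlier results of these data known, and 8 list entries were corrected by gene name. Alternatives were other scalings, filters, tests (DESeq2 1.42.0, limma-voom of limma 3.58.1), leaving out each library in turn, a threshold of 0.01, fitting the compared groups alone and a replicate block. A planned description of promoter motifs was not run, and no sequence is printed. Libraries with the same replicate number did not deviate together.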

Additional observations from a re-analysis of the deposited data

How the results depend on the processing

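In the settings run, member calls against control changed only for row RNAi, where UQCR-11 gave 1 call with no filter on low counts and 1 with only the groups compared. For row dsRNA against no row dsRNA, no filter gave 2 calls (UQCR-Q and UQCR-11), and leaving out 1 library gave 0 to 1, the 0 without control replicate 1. Leaving out libraries in turn moved the median log2 change from -0.16 to -0.06 in double RNAi. It ran from -0.07 to 0.01 in row RNAi and from -0.01 to 0.04 in BEAF-32 RNAi. With library totals the members' median interaction was -0.040 and that of all genes 0.06, against -0.10 and 0.0033 in the main fit. Taken over counts outside ribosomal protein genes, the members' share differed from control by 0.0423 percentage points in BEAF-32 RNAi, -0.0885 in row RNAi and -0.199 in double RNAi, against 0.0029, -0.0559 and -0.0893 of all counts; the denominator differs. Over the settings, calls among all genes ran from 8 to 22 in row RNAi, 10 to 30 in double RNAi, 25 to 78 for row dsRNA and 2 to 16 for BEAF-32 dsRNA. The count of members below 0, added after seeing the data, was within 1.5 times its main value in all 105 alternatives. That range is too wide to show a stable direction, and the largest counts could not have risen out of it. It let the direction turn in BEAF-32 RNAi, from 24 of 61 to 33 without its replicate 1. It did so in row RNAi too, from 37 of 61 to 29 without control replicate 1.

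Replicate numbers did not pair the libraries: same-numbered libraries had correlations of deviations from -0.12 to 0.06, and 5 of 12 were closest to their own number. A replicate block left the member calls at 0, 0 and 0 against control and 1, 0 and 0 for row dsRNA, BEAF-32 dsRNA and the interaction. As a check for a library deposited more than once, pairs of libraries of 1 group were compared with counting noise, with reads taken as independent; chi-square per degree of freedom was 3.71 to 6.42, so none was counted as a duplicate. Depth limits ND-AGGG, ND-B8 and the paralogs most. The promoter motif alternative was not run.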

Other observations

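Only 2 members, UQCR-11 and ND-AGGG, lie on the table's arm 3LHet, the assembled heterochromatin of 3L in the authors' build, which holds 24 genes of the table. The arm was looked at after the values of both members were seen. Of the 9 tested genes of this arm, 7 lay below 0 in row RNAi (median log2 change -0.08), and 5 in double RNAi (median -0.17). With row dsRNA against none, 5 of 9 lay below 0 (median -0.06) and 3 were lower at an unadjusted p under 0.05 (beside 4.7% of all genes), with 0 higher. The 2 members are among these 9 genes, so the counts are no independent evidence.

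By chromosome, the subunit genes and Sdhaf3 were spread over 2L (12 genes), 2R (11), 3L (10), 3R (14) and X (11), and chromosome 4 held ATPsynbeta and ND-49.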
